A study of Mus musculus with 2 samples.

Results

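The genes described are the aminoacyl-tRNA synthetases and the scaffold proteins that hold several of them together, as measured in total RNA of G1E cells. They were defined by a rule on names. The rule took protein-coding genes named for an amino acid letter followed by "ars", with or without a trailing digit. It also took the glutamyl-prolyl and phenylalanyl enzymes, and Aimp1, Aimp2 and Eef1e1. This gave 40 of the 43346 genes in the tables, of which 20 are cytosolic synthetases, 17 are mitochondrial synthetases, whose names end in 2, and 3 are scaffold proteins. G1E is an immortalized mouse cell line, labelled as male, postnatal and of strain C57BL/6J, and as an erythroid progenitor without Gata1, a transcription factor needed for red cell maturation. Both libraries carry this Gata1- state, so its effect cannot be told apart from the line itself. There was 1 group with 2 libraries, labelled biological replicates 1 and 2, with no treatment, no second genotype and no control line, so every comparison below is between genes or between the libraries. Each library started from 100 ng of RNA depleted of ribosomal RNA, with a size range of 200 to 1000 nt, and held 58094631 and 55274368 expected counts on genes. Whether the replicates came from separate cultures is not said beyond the word biological, so the spread between them may be partly technical.

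Aminoacyl-tRNA synthetases join each amino acid to its transfer RNA, the step at which the genetic code is read into protein. Mammalian cells keep separate sets for the cytosol and for mitochondria, both encoded in the nucleus, except that Gars and Kars each serve both places from 1 gene. The enzymes fall into 2 unrelated structural families, class I and class II. In the cytosol, 8 of the synthetases join with Aimp1, Aimp2 and Eef1e1 into a large multi-synthetase complex, and the remaining ones work outside it. Erythroid progenitors make protein at a high rate to divide and, later, to fill with haemoglobin, and mitochondrial translation supplies subunits of the respiratory chain.

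Markers of the labelled cell type were read first, from lists chosen with earlier results of these data known. They describe the cells and are no independent check of the label. All 13 markers listed for erythroid progenitors reached 1 TPM in both libraries, among them Kit at 88.5 ± 11.9 TPM and Gata1 itself at 7.06 and 7.13 TPM. A transcript total does not show whether a functional Gata1 product is made. Of 7 mast cell markers 4 were also detected, led by Cpa3, a granule protease, at 105 ± 11.3 TPM, while Mcpt8 was at 0 and Fcer1a at 0.02 and 0.04 TPM; the list summed to 196 and 175 TPM in replicates 1 and 2. Detection held for Lyz2 alone (1.34 and 1.33 TPM) among 7 markers of granulocytes and macrophages, and for none of 7 lymphoid or 4 fibroblast and stem cell markers. All lists were read in 1 cell line, so they do not divide its RNA between cell types. How the mast cell markers relate to the synthetase levels was not tested.

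All 40 members were detected, counting as detected a gene at 1 TPM or more in both libraries (TPM: estimated reads per effective transcript length, scaled to the same total in each library). The same held for 38.7% of the 21461 nuclear protein-coding genes. Counts behind the members ran from 434 to 32585 per library, and few reads were shared with other genes: the authors' posterior SD of the count was 0 for 38 members and at most 0.00265 of the mean for the others. At 5 TPM in both libraries, 28 members were left, including every cytosolic synthetase and scaffold protein and 5 of the 17 mitochondrial enzymes. No filter on low values was applied to the members.

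The cytosolic and mitochondrial sets were almost separate in level. The cytosolic enzymes ran from 6.76 to 73.8 mean TPM with a median of 21.8, and the mitochondrial enzymes from 1.25 to 9.36 with a median of 4.20. The cytosolic median was 23.2 TPM in replicate 1 and 21.0 in replicate 2, and the mitochondrial median was 4.51 and 4.20. The log2 ratio of the medians was 2.36 in replicate 1 and 2.32 in replicate 2, a mean of 2.34 ± 0.03 (SD, n = 2). Of the 20 cytosolic synthetases, 19 had a mean above the highest mitochondrial enzyme, and the exception was Cars. Summed TPM of the cytosolic set exceeded that of the mitochondrial set 7.39-fold in replicate 1 and 6.54-fold in replicate 2. Against the 8303 detected nuclear protein-coding genes, whose median was 7.0 TPM, 1 cytosolic and 13 mitochondrial enzymes stood below the middle. These are descriptions of 2 libraries, since a p-value over a chosen list is not given.

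**Figure D1:**
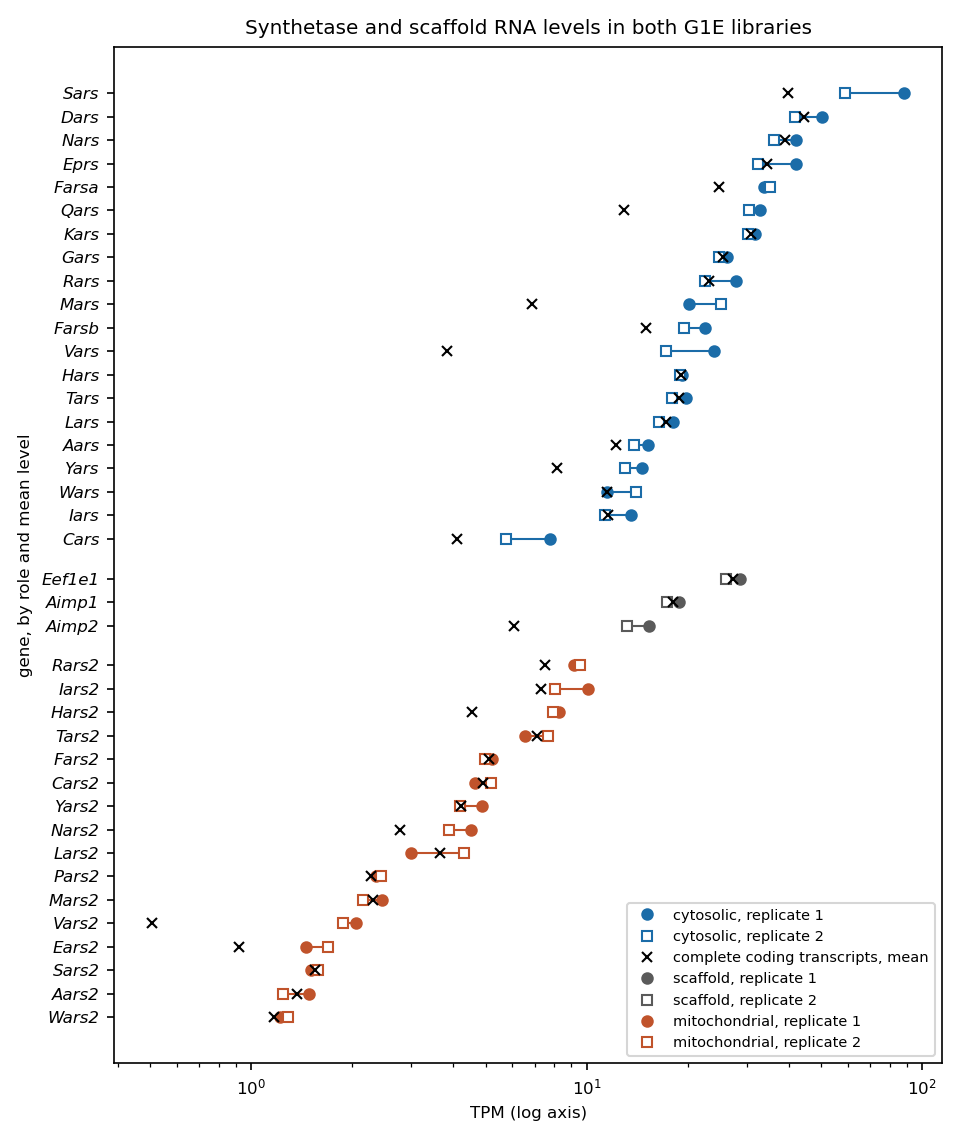
TPM of 39 members on a log axis, with a filled circle for replicate 1, an open square for replicate 2 and a cross for the mean TPM of its complete coding transcripts alone; genes are ordered by mean within each role. Every mitochondrial enzyme has a mean under 10 TPM, and of the cytosolic enzymes Cars (6.76 TPM) lies among them; Vars, Mars and Vars2 have crosses far to the left of their totals.

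Sars, the seryl enzyme, led the cytosolic set. Sars (ENSMUSG00000068739.9, chromosome 3, 108424865 to 108445209 on the minus strand, mm10) stood at 88.6 TPM in replicate 1 and 59.05 in replicate 2. Both values were above every other member, although they differed from each other more than those of any other member. Next came Dars, the aspartyl enzyme of the complex, at 50.3 and 41.9 TPM, and Nars, the asparaginyl enzyme, at 42.0 and 36.2. Eprs, a single protein that charges both glutamyl and prolyl transfer RNA, stood at 42.0 and 32.4 TPM. Farsa, the catalytic subunit of the phenylalanyl enzyme, stood at 33.8 and 35.3. The libraries' ranges of Dars, Nars and Eprs overlapped, so their order is not settled.

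At the low end, Cars, the cysteinyl enzyme (ENSMUSG00000010755.12, chromosome 7, 143557230 to 143600090 on the minus strand), stood at 7.78 and 5.75 TPM. Both values were below those of all other cytosolic synthetases. Iars, the isoleucyl enzyme of the complex, stood at 13.6 and 11.4 TPM, and Wars, the tryptophanyl enzyme, at 11.5 and 14.0. These 2 overlapped each other. Between these ends lay Qars at 31.6 ± 1.69 TPM, Kars at 31.0 ± 0.997, Gars at 25.5 ± 0.933, Rars at 25.2 ± 3.75 and Mars at 22.7 ± 3.47 (mean ± SD, n = 2). Farsb, Vars, Hars, Tars, Lars, Aars and Yars followed in that order, from 21.0 ± 2.08 down to 13.8 ± 1.18 TPM. Of the 19 neighbouring steps in the cytosolic order, 5 separated genes whose libraries did not overlap.

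Synthetases of the complex (Eprs, Iars, Lars, Mars, Qars, Rars, Kars and Dars) had a median of 28.1 TPM, and the 12 outside it a median of 19.9, with wide overlap: the complex ran from 12.5 to 46.1 TPM and the others from 6.76 to 73.8. Class I cytosolic enzymes had a median of 17.3 TPM (n = 9 genes) and class II enzymes one of 28.2 (n = 10 genes), leaving out Eprs, which carries 1 of each. In the mitochondrial set the medians were 3.65 TPM for 9 class I enzymes and 4.65 for 8 class II enzymes. On complete coding transcripts alone, explained further on, this order turned, with 3.65 TPM for class I and 2.52 for class II. The class I mitochondrial median was 2.99 TPM in replicate 1 and 4.20 in replicate 2, and the class II median 4.87 and 4.44.

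The scaffold proteins lay within the cytosolic range. Eef1e1, also called AIMP3, stood at 28.6 and 25.95 TPM, Aimp1 at 18.9 and 17.3, and Aimp2, on which the complex assembles, at 15.35 and 13.2. The 3 did not overlap one another in these libraries. Farsa and Farsb code for the catalytic and the other subunit of 1 enzyme, which pairs them in equal number. Farsa exceeded Farsb by a log2 ratio of 0.59 in replicate 1 and 0.85 in replicate 2, a mean of 0.72 ± 0.19, which did not pass the limit of 0.82. That limit, used for all ratios here, is 3 times the combined spread of the 2 genes, taken from the pooled SD between the libraries at their levels (0.198 on the log2 scale from 1 to 10 TPM and 0.193 from 10 to 100). The differences behind this SD were not centred, so it includes the shift in TPM between the libraries, a median of -0.14 (log2) over detected genes. A shift common to all genes cancels in a ratio within 1 library, and a limit without it was not computed.

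The mitochondrial set was led by Rars2 (ENSMUSG00000028292.10, chromosome 4, 34614957 to 34660167 on the plus strand), the arginyl enzyme, at 9.15 and 9.57 TPM, and Iars2, the isoleucyl enzyme, at 10.1 and 8.05. Hars2 stood at 8.26 and 7.94 TPM, and Tars2 at 6.54 and 7.67. Rars2 lay inside the range of Iars2, so which of these leads depends on the library. The lowest were Wars2 (ENSMUSG00000004233.10, chromosome 3, 99141068 to 99239186 on the plus strand), the tryptophanyl enzyme, at 1.22 and 1.29 TPM, Aars2, the alanyl enzyme, at 1.49 and 1.24, and Sars2, the seryl enzyme, at 1.51 and 1.58. Ears2 (1.57 ± 0.163 TPM) and Vars2 (1.97 ± 0.120) stood just above them.

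In the middle of the mitochondrial set, Fars2 stood at 5.11 ± 0.163 TPM, Cars2 at 4.91 ± 0.396, Yars2 at 4.54 ± 0.474, Nars2 at 4.20 ± 0.438 and Lars2 at 3.65 ± 0.926. Pars2 followed at 2.40 ± 0.0566 and Mars2 at 2.31 ± 0.219 TPM. Mars2 is annotated as 1 transcript of 11294 nt that fills its gene on chromosome 1 (55237177 to 55248470), and its 4603 and 4060 counts were the second highest of the mitochondrial set in both libraries, behind Iars2. Its TPM divides those counts by that length, so it depends on the annotated length being the one transcribed. Of the 16 neighbouring steps in this order, 6 separated genes whose libraries did not overlap.

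For 17 amino acids a cytosolic enzyme can be set beside its mitochondrial partner. The cytosolic gene was higher in both libraries for 17 of 17 pairs, and 15 pairs passed the limit. The median log2 ratio of TPM + 0.1 was 2.76, a factor of 6.77. By gene total the widest gap was in the seryl pair. Sars exceeded Sars2 58.7-fold in replicate 1 and 37.4-fold in replicate 2, a log2 ratio of 5.46 ± 0.46. Eprs exceeded Ears2 by 4.47 ± 0.40 and Pars2 by 3.89 ± 0.30 (log2), and both of these pairs share the Eprs value. The seryl pair was not the widest on complete coding transcripts alone, explained further on. There Sars over Sars2 was 4.60 and Eprs over Ears2 was 5.09.

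The next pairs lay between 2 and 4 on the log2 scale. Aars exceeded Aars2 by 3.33 ± 0.08, Vars exceeded Vars2 by 3.31 ± 0.25, Wars exceeded Wars2 by 3.24 ± 0.15, Mars exceeded Mars2 by 3.24 ± 0.35 and Nars exceeded Nars2 by 3.19 in replicate 1 and 3.18 in replicate 2. Farsa exceeded Fars2 by 2.73 ± 0.09 and Lars exceeded Lars2 by 2.23 ± 0.46. The Mars pair depends on the length correction of both genes. By CPM, which scales counts to the library total with no length correction, its ratio was 0.10 and did not pass its limit of 0.65. On complete coding transcripts alone, which leave the Mars2 value unchanged, the ratio was 1.54.

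The remaining pairs were closer. Yars exceeded Yars2 by 1.59 ± 0.03, Rars exceeded Rars2 by 1.41 ± 0.26, Tars exceeded Tars2 by 1.40 ± 0.26 and Hars exceeded Hars2 by 1.23 ± 0.03, all past the limit of 0.83. The isoleucyl and cysteinyl pairs did not pass. Iars exceeded Iars2 by 0.42 and 0.49 in replicates 1 and 2, and Cars exceeded Cars2 by 0.74 and 0.15, against limits of 0.83 and 0.84. Cars stood at 7.78 and 5.75 TPM beside 4.63 and 5.19 for Cars2. Across the 17 pairs the level of the cytosolic enzyme was only weakly related to that of its partner (Spearman's rho -0.09, Pearson's r of log2 TPM -0.16, n = 17 pairs that share both libraries and of which 2 share Eprs, given as a description).

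**Figure D2:**
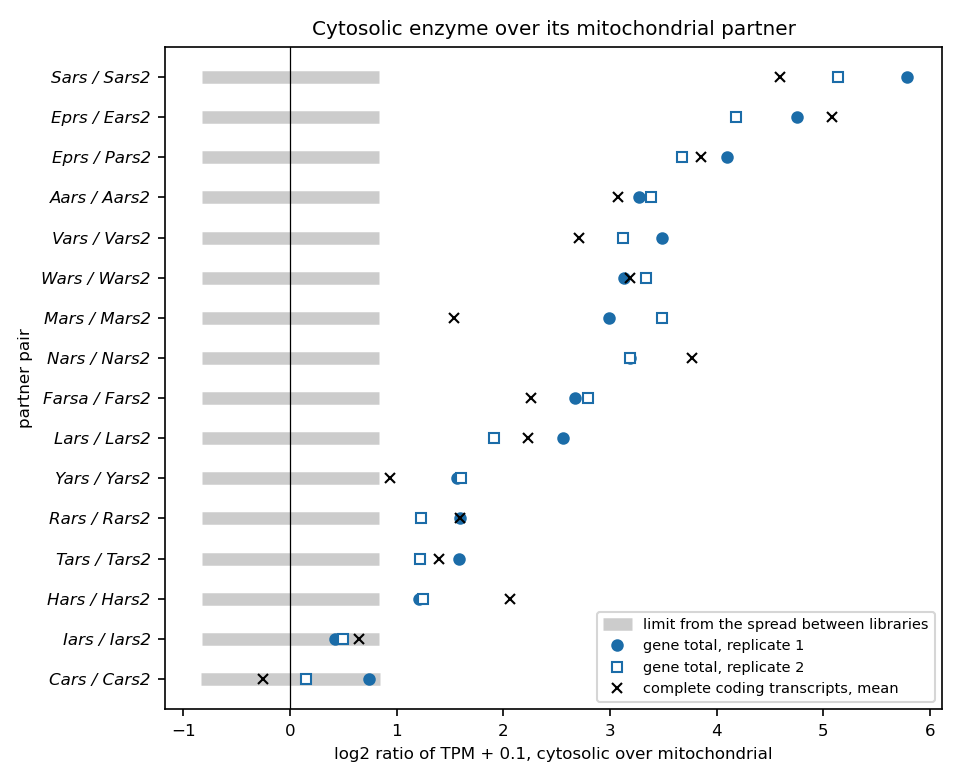
Log2 ratio of TPM + 0.1 for 16 pairs of a cytosolic gene over its mitochondrial partner, with replicate 1 as filled circles, replicate 2 as open squares, crosses for complete coding transcripts alone and grey bars for the limit set by the spread between libraries. All circles and squares lie to the right of 0, from the seryl pair at 5.78 and 5.14 to the cysteinyl pair at 0.74 and 0.15, and the isoleucyl and cysteinyl pairs lie within the grey bars.

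A gene's TPM was not always assigned to transcript models annotated as complete coding. The shares below are assignments of reads to annotated models, and what RNA in the cell those reads came from was not tested. Transcripts were sorted by their GENCODE type into complete coding, partial coding (coding models annotated as lacking an end), retained intron, nonsense-mediated decay (a fate of RNAs with an early stop) and other non-coding. Complete coding transcripts held all of the TPM of 15 members to within 0.5 percentage points, and at least 50% of it in 34 of 40. Among the 6 below that were Vars, Vars2, Mars, Qars and Aimp2. A short model needs few reads to reach a high TPM, so these shares are larger for short partial and intron-retaining models than their reads are.

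Sars kept a complete coding majority on average, but its shares differed widely between the libraries. In replicate 1 a partial coding model of 637 nt (Sars-204) held 57.9% of Sars TPM, 51.3 TPM from 3678 counts, and in replicate 2 it held 28.3%, 16.7 TPM from 1269 counts. The complete coding model of 1866 nt (Sars-202) went from 26.7 to 33.8 TPM. Summed over complete coding models, Sars stood at 37.3 and 42.3 TPM, second to Dars at 48.5 and 40.1 by mean, with overlapping libraries.

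Retained-intron models held much of the TPM of both valyl enzymes. Of Vars TPM, complete coding models held 13.9% in replicate 1 and 25.1% in replicate 2, and retained-intron models held 58.9% and 52.5%. By expected counts rather than TPM, the retained-intron share of Vars was 56.8% and 43.2%, of which a model of 3731 nt held most reads. The leader of Vars was a retained-intron model of 475 nt in replicate 1 (27.8%) and the complete coding one of 4137 nt in replicate 2 (25.1%). For Vars2, complete coding models held 19.0% and 33.2% of TPM and retained-intron models 74.1% and 50.3%. By counts these shares were 40.7% and 59.0% for complete coding and 57.5% and 34.6% for retained-intron models. By TPM its leader was a retained-intron model of 618 nt in replicate 1 (36.8%, from 51.7 counts), which held 0 counts in replicate 2, where the complete coding one of 4425 nt led (33.2%). Complete coding models then stood at 3.33 and 4.32 TPM for Vars and at 0.39 and 0.62 for Vars2.

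Mars was led in both libraries by a retained-intron model of 467 nt with 36.4% and 50.1% of its TPM but 317 and 591 of its 4505 and 4796 counts. Complete coding models held 71.1% and 65.9% of Mars counts. Aimp2 was led in both by a retained-intron model of 591 nt, with 54.1% ± 5.54 of its TPM. By counts a complete coding model of 1185 nt led it, with 579 and 602 counts beside 569 and 451, and complete coding models together held 60.3% and 67.1%. Mars, Aimp2 and Kars were singled out after their shares were seen. Qars had 18 models, and its leader, a complete coding one of 2793 nt, held 36.0% and 31.9%. A Qars model of 2150 nt with no match in the annotation used for types held 12.8% and 11.7% of TPM. It was not counted as complete coding. By counts, complete coding models held 71.1% and 71.8% of Qars.

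The leading transcript could be compared in the 28 members with more than 1 model, and it was the same in both libraries for 24. Sars, Vars and Vars2 were among the 4 exceptions. Hars2 was led by a complete coding model of 3336 nt with 44.2% and 34.7% of its TPM. Kars, whose cytosolic and mitochondrial forms arise by alternative splicing, had 3 complete coding models. One of 2007 nt held 87.4% and 88.6% of its TPM, one of 2156 nt held 9.80% and 9.87%, and one of 2188 nt held 2.85% and 1.55%. Which of them carries the mitochondrial signal was not determined here. The remaining 12 members, Gars, Hars, Nars, Tars, Lars, Aars2, Sars2, Cars2, Lars2, Mars2, Aimp1 and Eef1e1, had 1 model each.

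**Figure D3:**
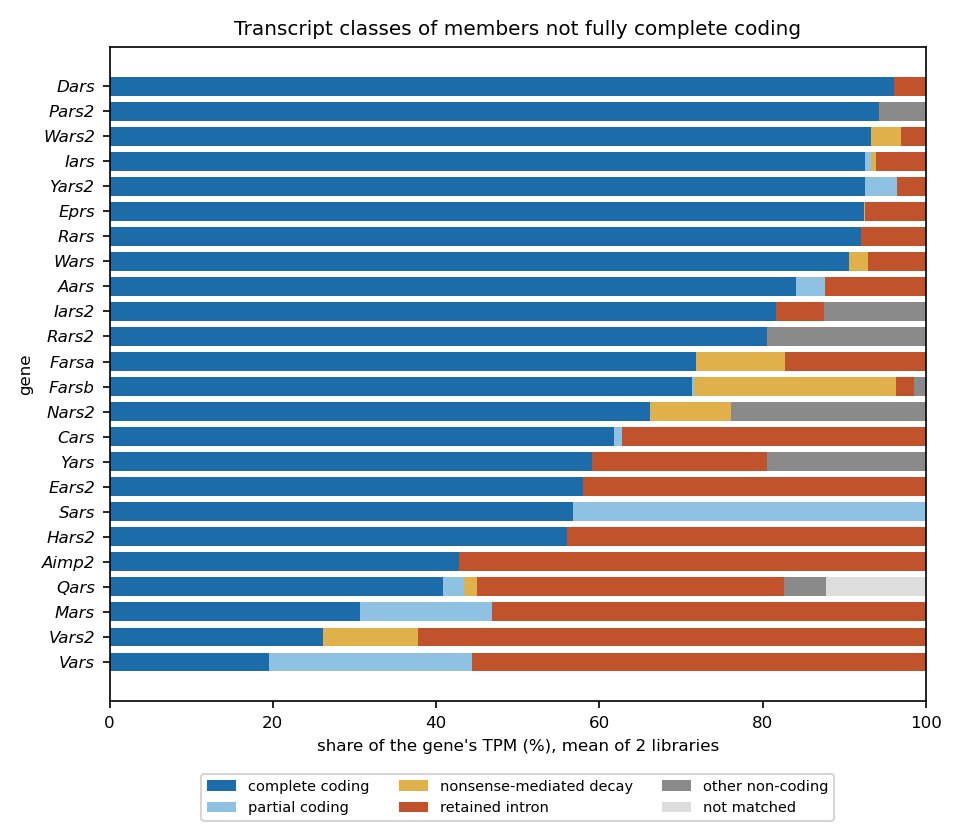
Share of each gene's TPM, as the mean of both libraries in percent, held by complete coding, partial coding, nonsense-mediated decay, retained-intron and other non-coding models, and by models with no match in the annotation used for types; the 15 members that were wholly complete coding are left out. Retained-intron models fill most of the bars of Vars2, Aimp2, Mars and Vars, and a partial coding model fills 43.2% of the bar of Sars.

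Counting complete coding models alone kept the gap between the sets but moved single genes. The medians became 18.1 TPM for the cytosolic and 2.77 for the mitochondrial enzymes. The cysteinyl pair turned, with Cars below Cars2 by a log2 ratio of -0.25, within its limit. Vars (3.83 TPM), Cars (4.10) and Mars (6.86) then lay within the mitochondrial range, leaving 17 cytosolic enzymes above it. Cytosolic genes remained above their partners in both libraries for 16 of 17 pairs, of which 15 passed the limit. Mars over Mars2 became 1.54, down from 3.24. This setting was chosen after the transcript shares had been seen.

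Between the libraries the members differed little in counts. By TMM-scaled expected counts, the differences (replicate 2 over replicate 1) ran from -0.18 for Eprs to 0.71 for Lars2 on the log2 scale, with 32 members higher and 8 lower in replicate 2, beside 61.7% of detected nuclear protein-coding genes higher. This split follows the scaling: by library totals, which lower every difference by 0.09, 20 members were higher and 20 lower, beside 43.3% of those genes higher. A two-sided exact binomial test over all genes, with Benjamini-Hochberg adjustment and at least 1.5-fold, called 1 of 40 members, which is 2.5%. The same rule called 17.3% of 18409 genes tested and 3.02% of the 8611 genes that reached the 895 counts of the lowest member, both libraries summed. The members' share is thus near that of genes of like depth. This test compares 2 libraries and covers counting error only.

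The member called was Lars2, the mitochondrial leucyl enzyme (ENSMUSG00000035202.7, chromosome 9, 123366927 to 123462666 on the plus strand). It held 1849 counts in replicate 1 and 2704 in replicate 2, and 2.99 and 4.30 TPM. The log2 difference in counts was 0.71 (adjusted p = 1.62e-59, exact binomial test with Benjamini-Hochberg adjustment). The next largest were Tars2 at 0.41, Pars2 at 0.39, Cars2 at 0.36 and Wars at 0.35, under 1.5-fold. Without the fold minimum, 26 members passed at an adjusted p of 0.05, beside 66.1% of genes of like depth.

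By TPM, 29 members were lower in replicate 2, or 72.5%, beside 71.9% of detected nuclear protein-coding genes, and the median difference was -0.14 (log2) both for the members and for those genes. The largest decreases were -0.59 for Sars, -0.48 for Vars and -0.44 for Cars, and the largest increase was 0.52 for Lars2. In counts Sars, Vars and Cars differed by 0.04, 0.12 and 0.10, and 7 members in all differed by more than 0.3 between the scales. Part of such a gap was present in members with 1 model too. Hars differed by -0.02 in TPM and 0.17 in counts, and Nars by -0.21 and -0.03. For Sars, Vars and Cars the share of short partial or retained-intron models was lower in replicate 2, and the gene length in the deposited tables, a mean over transcripts, was longer: 1358.6 and 1760.5 nt for Sars in replicates 1 and 2. On complete coding models alone, Sars was higher in replicate 2 by 0.18 and Vars by 0.38, and Cars was lower by -0.06.

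**Figure D4:**
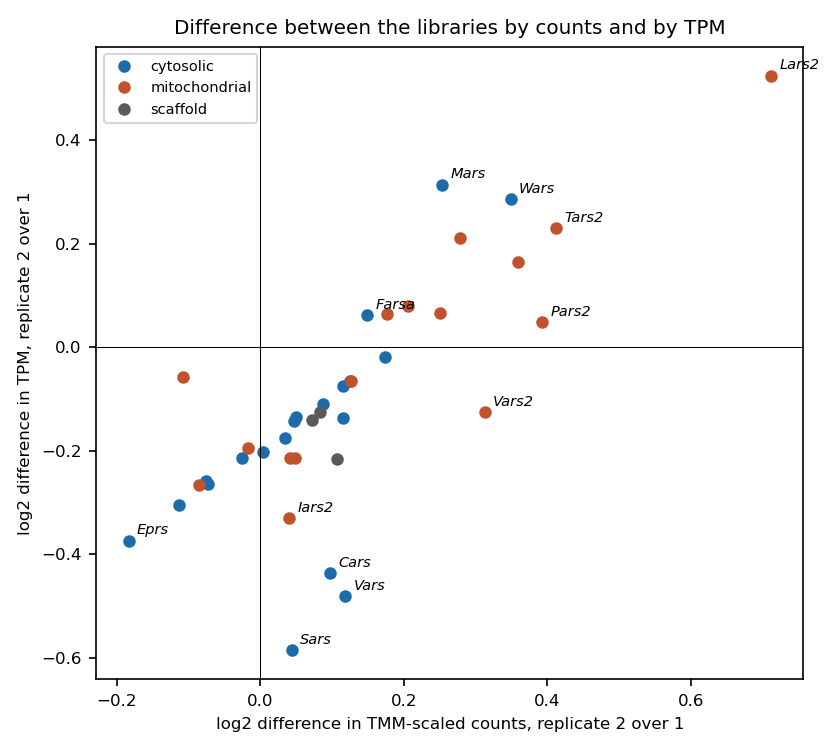
Each of 39 points is a member, with its log2 difference in TMM-scaled counts (replicate 2 over replicate 1) on the horizontal axis and its log2 difference in TPM on the vertical axis, coloured by role. Lars2 stands apart at 0.71 in counts, while Sars, Vars and Cars lie near 0 in counts and between -0.59 and -0.44 in TPM.

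Promoter windows of 250 bases before the RefSeq start (GRCm38.p6, the assembly of mm10) were found for 30 of the 40 members, 13 cytosolic, 14 mitochondrial and 3 scaffold genes. They were searched on both strands for TGATGNAAN, the core bound by ATF4 with C/EBP factors in genes of the amino acid response, for CACGTG, the E-box used by MYC, and for GCATGCGC, part of the palindrome bound by NRF1, a regulator of nuclear genes for mitochondria. The first was in 3 of 13 cytosolic and 0 of 14 mitochondrial promoters, beside 3.89% of all 27025 genes with windows of that length. The cytosolic genes were Gars, Tars and Aars, at 25.5, 18.9 and 14.5 mean TPM. CACGTG was in 3 of 13 cytosolic (Farsb, Iars and Aars) and 0 of 14 mitochondrial promoters, beside 6.86% of all genes. GCATGCGC was in 0 of 13 cytosolic and 3 of 14 mitochondrial promoters (Rars2, Vars2 and Wars2), beside 2.56% of all genes. No scaffold gene held any of the 3 words. The Aars words lay in an annotated exon, past the annotated gene start (chromosome 8, 111033144) though before the RefSeq start. The Rars2 word also lay in an annotated exon, though before the annotated start of Rars2. Matches are descriptions of the letters and not binding sites, and no test of enrichment was made. The shares of all genes include genes not detected here. The mitochondrial genes with GCATGCGC stood at 9.36 (Rars2), 1.97 (Vars2) and 1.25 (Wars2) mean TPM.

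The windows that hold these words are shown where they lie outside annotated exons, 5′ to 3′ on the strand of the gene, with the word in capitals; a word on the other strand appears as its reverse complement. Each was chosen because it carries a word that only 1 of the sets held. The 2 cytosolic windows with the ATF4 core are those of Gars (chr6:55037881-55038000, plus strand), with the word starting 31 bases before the start, and Tars (chr15:11399666-11399778, minus strand), with the word 16 bases before it.
Gars: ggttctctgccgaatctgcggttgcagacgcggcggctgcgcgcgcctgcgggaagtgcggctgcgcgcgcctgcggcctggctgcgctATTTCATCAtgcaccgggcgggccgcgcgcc
Tars: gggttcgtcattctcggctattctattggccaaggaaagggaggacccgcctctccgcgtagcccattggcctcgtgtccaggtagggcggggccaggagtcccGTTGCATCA

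The E-box windows are those of Farsb (chr1:78488898-78489017, minus strand) and Iars (chr13:49682004-49682099, plus strand), with the word 39 and 69 bases before the start.
Farsb: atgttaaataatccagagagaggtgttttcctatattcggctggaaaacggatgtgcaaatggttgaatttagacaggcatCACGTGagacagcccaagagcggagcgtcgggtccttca
Iars: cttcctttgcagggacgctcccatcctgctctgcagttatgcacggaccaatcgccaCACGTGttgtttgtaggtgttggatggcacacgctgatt

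The mitochondrial windows with GCATGCGC are those of Wars2 (chr3:99140970-99141067, plus strand), with the word 64 bases before the start, and Vars2 (chr17:35667593-35667712, minus strand), which holds the word at 46 and again at 20 bases before it.
Wars2: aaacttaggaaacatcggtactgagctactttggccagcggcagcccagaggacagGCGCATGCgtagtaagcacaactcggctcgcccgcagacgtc
Vars2: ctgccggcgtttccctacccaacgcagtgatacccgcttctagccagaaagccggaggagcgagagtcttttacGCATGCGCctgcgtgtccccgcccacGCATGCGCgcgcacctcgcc

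CpG content, as the observed over expected ratio, had a median of 0.632 in cytosolic and 0.743 in mitochondrial promoters, beside 0.374 over all promoters. The last value includes promoters of genes not detected here, and none was computed for detected genes alone. Several members started back to back with another gene. A protein-coding gene on the opposite strand started within 1 kb of 12 of 40 members, beside 20.5% of detected and 10.9% of all nuclear protein-coding genes. These were 6 of 17 mitochondrial, 4 of 20 cytosolic and 2 of 3 scaffold genes. Hars and Hars2 are each other's neighbour, with starts 197 bases apart, and stood at 19.1 ± 0.177 and 8.10 ± 0.226 TPM. Rars2 starts 13 bases from Orc3, an origin recognition subunit (27.8 and 27.3 TPM), and Sars2 starts 172 bases from Mrps12, a mitochondrial ribosomal protein (4.59 and 5.89 TPM).

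No source used here gives the strand setting of the counts, so members that overlap an expressed gene on the other strand are uncertain. The longest such overlaps were 2034 bases between Iars2 and Rab3gap2, 1548 between Aimp2 and Eif2ak1, and 984 between Cars2 and Naxd. Hars and Hars2 overlap each other by 198 bases, and Mars overlaps Ddit3, a stress-induced transcription factor at 29.2 and 25.4 TPM, by 68 bases. One retained-intron model counted under Qars in the tables, with 8.26% and 3.76% of its TPM, is named for the neighbouring gene Qrich1 in the later annotation.

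Levels of other genes of the pathway follow for scale. Mammalian mitochondria have no glutaminyl synthetase and instead convert misacylated transfer RNA with an amidotransferase. Its subunits Qrsl1, Gatb and Gatc stood at 1.45 ± 0.0990, 3.45 ± 0.233 and 1.29 ± 0.438 TPM, with Gatc under 1 TPM in replicate 2 (0.98). Of 13 measured genes for transamidation, formylation, editing and related steps, 11 were detected, with a median of 5.01 TPM. Prorsd1, a relative of prolyl editing domains, was the highest at 23.8 ± 1.82 TPM. Tarsl2, a second cytosolic threonyl enzyme outside the name rule, stood at 12.1 ± 0.0495 TPM beside 18.9 ± 1.31 for Tars.

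Translation factors differed between compartments in the same order. The 5 cytosolic elongation factors, which deliver charged transfer RNA and move the ribosome, had a median of 296 TPM, from Eef1d at 86.7 ± 5.35 to Eef1a1 at 1600 ± 17.4. The 4 mitochondrial ones had a median of 11.8 TPM, from Gfm2 at 8.40 ± 1.58 to Gfm1 at 15.2 ± 1.75. Mitochondrial ribosomal proteins had a median of 13.6 TPM (77 of 77 genes detected), from Mrps34 at 3.31 ± 0.856 to Mrps21 at 114 ± 3.55. Cytosolic ones had a median of 327 (76 of 79), with Rpl41 the highest at 1121 ± 118 and the copies Rpl10l, Rpl3l and Rpl39l at 0.01, 0.02 and 0.045 mean TPM. Proteasome subunits, a set of another kind, had a median of 36.1 TPM (35 of 39 detected), with Psma6 the highest at 94.7 ± 6.51, the tissue-specific subunits Psma8 and Psmb11 at 0.005 and 0.02, and the interferon-induced Psmb8 and Psmb9 at 0.01 and 0.745. These medians are set beside 21.8 TPM for the cytosolic and 4.20 for the mitochondrial synthetases without a test.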

How the data were processed

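Total RNA was sequenced from 2 libraries of 1 line. For each library the authors deposited expected counts, TPM with an interval, posterior means and SDs, and each transcript's percent of its gene, per the file headers. Read-me texts deposited with them name mm10 and GENCODE M4; aligner, counter and strand setting: not given in the sources used here. Rows that name no gene (26345) held 20 and 37.61 counts, 3.44e-05% and 6.80e-05% of each library, and were left out. Symbols, types and coordinates came from GENCODE M21 on the same assembly by Ensembl identifier (42462 of 43346 matched).

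Deposited TPM values were used as they stand, and ratios use log2 of TPM + 0.1. Deposited expected counts were rounded, scaled with TMM (edgeR 4.0.16, R 4.3.3) and compared between libraries by a two-sided exact binomial test. It was tried on simulated counts that hold counting error only, as the test assumes. That trial does not check the test against the spread between real libraries. Genes needed 10 counts, and p-values had Benjamini-Hochberg adjustment (0.05). This test replaced edgeR's quasi-likelihood test, which has no residual degrees of freedom with 1 library a side. DESeq2 1.42.0 gave other size factors. Other steps ran in Python 3.11.15 (scipy 1.17.1, numpy 2.4.6, pandas 2.3.3), with figures from matplotlib 3.10.9. By rule, members are named, each role's highest 5 and lowest 3 by library, with transcripts where the leader changed or held under 50% in both. Results for 1 member and 1 related gene that the rule names are not reported here; counts and medians include them, and figures leave that member out. The members and lists were chosen with earlier results of these data known. Protein sequences were not analysed here.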

Additional observations from a re-analysis of the deposited data

How the results depend on the processing

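The log2 ratio of the cytosolic over the mitochondrial median, 2.34, was 2.30 by CPM, 2.22 without Gars and Kars, which serve both compartments, and 2.69 on complete coding transcripts alone (a setting added after the data were seen); it was 2.32 and 2.36 in single libraries. Leaving out either library kept 15 of 17 partner pairs past the limit, CPM kept 14, losing Mars over Mars2 at 0.10, and complete coding transcripts kept 15 but turned Cars over Cars2 to -0.25. Farsa over Farsb passed its limit by CPM at 0.64 and in replicate 2 alone at 0.85, against 0.59 in replicate 1 alone. With a minimum of 2-fold, 0 members differed between the libraries by the exact binomial test with edgeR's TMM and 0 with DESeq2's size factors, while 31 passed at an unadjusted p under 0.05. Detection held for 38 members on complete coding transcripts and 28 at 5 TPM. The same leading transcript was found for 24 members with posterior shares and 26 among coding transcripts. No paired analysis was possible because there is 1 group. With 2 libraries no outlier could be sought. Leaving out a library leaves no comparison between libraries and no repeat of the leading transcript, so neither was run that way. For the 17 partner pairs under all settings, 117 ratios kept direction and side of the limit, and those of Mars over Mars2 and Cars over Cars2 given above did not. Every member had at least 434 counts per library.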
